A study of Rattus norvegicus with 8 samples.

Results

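The genes described here are 9 markers of astrocytes (Gfap, Aqp4, Aldh1l1, Sox9, Gja1, Gjb6, S100b, Aldoc and Fgfr3), followed across the medial thalamus of 8 rats. They were chosen by name, and 8 of the 9 were found under their own symbol among the 35561 gene names and 41012 probes of the array, on 12 probes and 48 spots. Of those 12 probes, 11 were bright enough to be tested, out of 31689 tested probes in all. No probe carries the name Aldh1l1, but the array design lists this gene under its former symbol Fthfd. Its single probe was matched to Aldh1l1 through its transcript accession in RefSeq and is described beside the others, which brings the total to 13 probes, 12 of them tested. Every one of the 9 genes had at least 1 probe well above background on all 8 arrays.

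Astrocytes are the glial cells that surround synapses and vessels, clear transmitter and potassium from the extracellular space, carry water at their endfeet and form a network joined by gap junctions. In the brainstem they are also known to respond to carbon dioxide and low oxygen. The thalamus holds protoplasmic astrocytes in its grey matter and fibrous astrocytes along its fibre tracts. Gfap is known to be low in many grey matter astrocytes and to rise when astrocytes become reactive.

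All 8 animals were male Sprague-Dawley rats (277 g), under urethane anaesthesia, each with a cuff on the trachea that could be inflated. In the 4 occlusion rats the cuff closed the airway for 2 to 4 breaths, with at least 15 breaths of recovery between closures, over a period of 10 min, and the brain was taken at once. The 4 control rats wore the cuff without inflation, and their brains were removed 70 min after the surgical setup. For the occlusion rats no such interval was found in the labels, so treatment and time under anaesthesia cannot be told apart. No ages were found either. Each animal's RNA was labelled with Cy5 and hybridised with a Cy3-labelled pool of all 8 animals to 1 whole-genome rat oligonucleotide array, without dye swaps. Every value below called a log2 ratio is therefore the animal over that pool. The source of an offset from 0 shared by the animals, be it probe, dye or pool, was not tested, so only differences between animals are read. Of the 2 slides, each held arrays of both groups, 2 and 2. Cy5 was well above background at 68.3% to 80.2% of the spots that are not controls. The number of animals, 4 a group, limits the precision. Because the samples are pieces of tissue, fewer astrocytes and less RNA per astrocyte cannot be told apart.

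The piece of tissue labelled control 3 stood apart from the other 7. Slc17a6, the glutamate transporter of thalamic relay neurons, had a log2 ratio of -2.99 there and lay between -0.03 and 0.26 in the others. Neurod2, a cortical transcription factor, was 2.60 there and between -2.06 and -0.70 elsewhere. Differences between the groups are therefore also given without this animal where that turns their direction or moves them by over 1.5 times.

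No astrocyte gene passed the test between occluded and control rats. Of the 12 tested probes, 0 had an adjusted p under 0.05 (limma with Benjamini-Hochberg adjustment over all 31689 tested probes), against 0% of all tested probes. Their adjusted p-values ran from 0.977 to 0.990. At an unadjusted p under 0.05 there were 2 of the 12, against 3.06% of all tested probes, and both of these probes read Sox9. Both were higher under occlusion, where 1.81% of all tested probes were higher at that level, and 0 of the 12 were lower, where 1.25% were. Without control 3 the same pair had an unadjusted p under 0.05, against 4.12% of all tested probes, and 0 of the 12 passed after adjustment, against 0.00316%. Taking the brightest tested probe of each gene, 7 of the 9 genes had a log2 difference (occlusion minus control) above 0 and 2 below, where 50.7% of all tested probes lay above 0. The median of the 9 differences was 0.16, against 0.002 over all tested probes, and 0.11 without control 3. The 9 genes share the same 8 animals, so these counts do not add up as 9 separate observations.

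**Figure D1:**
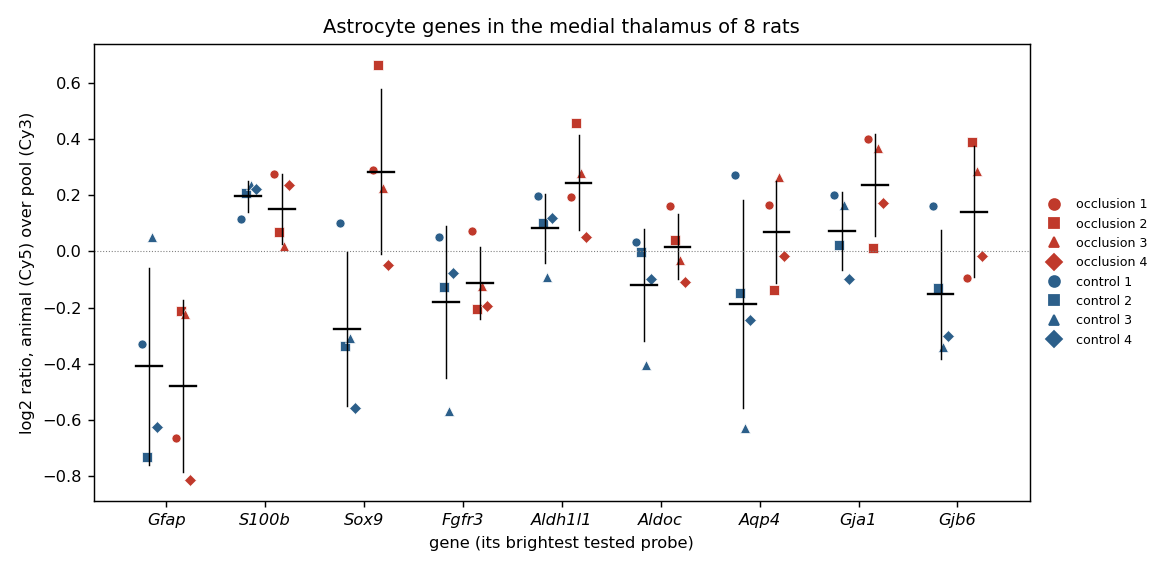
Log2 ratio of animal (Cy5) over pool (Cy3) for the brightest tested probe of each of the 9 astrocyte genes. Each symbol is 1 animal (blue control, red occlusion, shape by animal number), horizontal lines are group means and vertical lines 1 SD (n = 4). The groups overlap for every gene shown, and control 3 (blue triangle) is the lowest animal for 5 genes and the highest for Gfap.

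Gfap and S100b encode the structural and calcium-binding proteins most used to stain astrocytes, and both differed little between the groups. The log2 ratio of Gfap, the intermediate filament protein, was -0.66, -0.21, -0.22 and -0.81 in occlusion rats 1 to 4 and -0.33, -0.73, 0.05 and -0.62 in control rats 1 to 4. The groups overlapped almost fully, with the lowest animal in the occlusion group and the highest, control 3, in the control group. The means were -0.48 ± 0.31 (SD, n = 4) in the occluded rats and -0.41 ± 0.35 (SD, n = 4) in the control rats. The difference of -0.07 had a standard error of 0.20 (limma adjusted p = 0.986, exact permutation p = 0.771). Its 95% interval, from -0.52 to 0.38, leaves room for changes of up to about that size in either direction. Without control 3 the difference was 0.08, and without occlusion rat 4 it was 0.04, so its sign rested on single animals. The raw Cy5 signal of this probe ran from 646 to 1539.9 intensity units over the 8 arrays.

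S100b, a calcium-binding protein that mature oligodendrocytes also make, was the steadiest gene of the 9. Its log2 ratio was 0.27, 0.07, 0.02 and 0.24 in the occlusion rats and 0.12, 0.21, 0.24 and 0.22 in the control rats. The lowest and the highest animal were both occluded. The difference was -0.05 with a standard error of 0.08 (limma adjusted p = 0.980, exact permutation p = 0.571) and a 95% interval from -0.22 to 0.13. Among the 9 genes, read by their brightest probes, S100b had the smallest standard error.

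Sox9, the transcription factor that sets up and maintains astrocyte identity, had the largest difference among the 9 genes. The array carries 4 probes for it, all on the plus strand of rat chromosome 10 in the genome build rn3 named by the file headers. Ordered along the gene, A_44_P263110 lies at chr10:102408192-102408251, A_44_P102481 at chr10:102408594-102408653, A_42_P745356 at chr10:102409902-102409961 and A_44_P221245 at chr10:102410155-102410214. The starts of the first pair lie 1963 and 1561 bases before that of the last probe, and that of the next 253 bases before it. No exon or UTR annotation of this build was used.

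The 2 downstream probes were bright and moved together. The brightest, A_42_P745356, had log2 ratios of 0.29, 0.66, 0.23 and -0.05 in occlusion rats 1 to 4 and 0.10, -0.34, -0.31 and -0.56 in control rats 1 to 4. Of the occluded rats 3 lay above every control, while occlusion rat 4 lay below control 1. The group means were 0.28 ± 0.29 (SD, n = 4) and -0.28 ± 0.27 (SD, n = 4), a difference of 0.56 with a standard error of 0.17 and a 95% interval from 0.16 to 0.95. This interval is not adjusted for the number of probes tested, and the difference did not pass (limma adjusted p = 0.977, exact permutation p = 0.0571). In absolute size it exceeded the differences of 99.1% of all tested probes.

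The last probe, A_44_P221245, had log2 ratios of 0.40, 0.42, 0.18 and -0.05 in the occlusion rats and -0.11, -0.09, -0.27 and -0.54 in the control rats. Here every occluded rat lay above every control, although occlusion rat 4 and control 2 were only a few hundredths apart. This was 1 of the 12 tested astrocyte probes whose groups did not overlap, against 2.5% of all tested probes. The difference was 0.49 with a standard error of 0.13 (limma adjusted p = 0.977). The exact permutation p was 0.0286, the smallest that 4 against 4 animals can give. The bright Sox9 probes gave 0.55 and 0.49 without control 3, and the last was then still the 1 tested astrocyte probe whose groups did not overlap, against 6.13% of all tested probes. Across the 8 animals they correlated with r = 0.92, a value that describes 8 arrays sharing 1 pool.

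The 2 upstream probes were dim and did not show the difference between the groups. Their raw Cy5 signals ran from 108 to 153 and from 93.1 to 119, only 1.58 to 2.47 times the local background, against 15.5 to 39.3 times for the bright probes. A_44_P263110 had log2 ratios between -0.12 and -0.02 in the occlusion rats and between -0.21 and 0.16 in the control rats, with a difference of -0.04 and a standard error of 0.10. A_44_P102481 gave 0.02 with a standard error of 0.08 and was well above background on 7 of the 8 arrays. Without control 3 these differences were -0.105 and 0.001. The background correction adds an offset of 50 units, which pulls ratios of dim spots towards 0. On the ratios of the scanner software, which uses no such offset, these probes spread from -0.52 to 0.89 and from -1.10 to 0.48, without separating the groups. With A_44_P221245 the dim probes correlated with r = -0.21 and 0.56, and with A_42_P745356 with r = 0.006 and 0.57. Without control 3 these were -0.46, 0.52, -0.19 and 0.53, so A_44_P102481 followed the bright probes in part. Averaging all 4 probes of the gene gave a difference of 0.26 in place of 0.56.

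**Figure D2:**
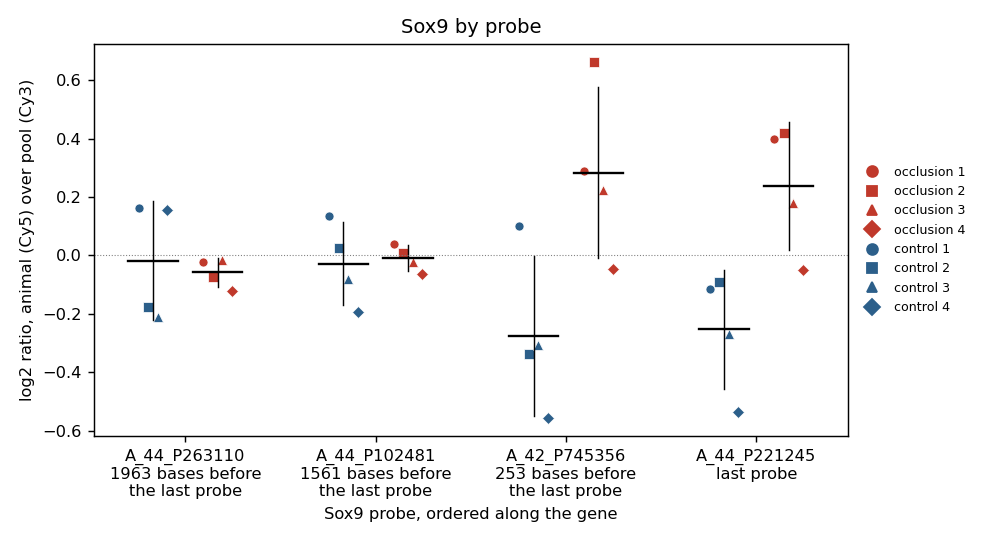
Log2 ratio of animal over pool for the 4 Sox9 probes, ordered along the gene, with the distance of each start from that of the last probe. Symbols, group means and SD bars (n = 4) are as in the plot of all genes. The 2 downstream probes show 3 or 4 occluded rats above all controls, and the 2 upstream probes show overlapping groups around 0.

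The size of the Sox9 difference was uneven between slides. Within slide 1 (occlusion rats 1 and 2, control rats 3 and 4) the brightest probe gave 0.91 and the last probe 0.81. Within slide 2 (occlusion rats 3 and 4, control rats 1 and 2) they gave 0.21 and 0.17. Whether the slides differ was not tested. Markers of ependyma and choroid plexus, lining cells of the ventricle of which some also make Sox9, were mostly higher under occlusion too. The occluded rats were the higher group for 13 of the 15 tested genes listed, where 50.7% of all tested probes lay above 0. List means lay between -0.24 and 0.32 in occlusion rats and between -0.87 and -0.30 in control rats. Of other lists, 11 of 12 oligodendrocyte and 9 of 9 relay neuron genes were higher. Only 1 of 12 meningeal and 0 of 7 cortex genes were. Without control 3 these counts, from ependyma and choroid plexus on, were 13, 8, 2, 9 and 5. Foxj1, the regulator of motile cilia, differed by 0.80 with a standard error of 0.30, and by 0.51 without control 3. Over the 8 animals the Sox9 ratio and the mean of the ependyma and choroid plexus list had r = 0.67, and 0.67 again without control 3. This was not particular to that list. Sox9 had r = 0.56 with the oligodendrocyte precursor list and 0.28 with the astrocyte reactivity list, and 0.64 and 0.85 without control 3. With the endothelium and microglia lists r was -0.30 and -0.31, and -0.22 and -0.48 without control 3. The mean of the ependyma and choroid plexus list had r = 0.83 with Aqp4, 0.76 with Aldoc, 0.74 with Aldh1l1, 0.72 with Gjb6 and 0.52 with Gja1. Without control 3 these were 0.61, 0.39, 0.53, 0.58 and 0.77. The part of lining tissue in the values of these genes was not tested.

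Fgfr3, a fibroblast growth factor receptor enriched in astrocytes, showed no separation. Its log2 ratio was 0.07, -0.20, -0.13 and -0.19 in the occlusion rats and 0.05, -0.13, -0.57 and -0.08 in the control rats. Control 3 was the lowest of all, and occlusion rats 2 and 4 lay below the other 3 controls. The difference of 0.07 (standard error 0.13, limma adjusted p = 0.982, exact permutation p = 0.771) turned to -0.06 without control 3. Its probe spans chr14:82686479-82686713 on the minus strand of rn3.

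Aldh1l1 and Aldoc are metabolic enzymes used as pan-astrocyte markers, the former in folate metabolism and the latter in glycolysis. Aldh1l1 had log2 ratios of 0.19, 0.45, 0.28 and 0.05 in the occlusion rats and 0.20, 0.10, -0.09 and 0.12 in the control rats. Only occlusion rats 2 and 3 exceeded all controls. The difference was 0.16 with a standard error of 0.10 (limma adjusted p = 0.977, exact permutation p = 0.200). It was 0.11 without control 3 and 0.093 without occlusion rat 2. Within slide 1, which holds control 3, the lowest animal, it was 0.31 and within slide 2 it was 0.017. Aldoc had log2 ratios of 0.16, 0.04, -0.03 and -0.11 in the occlusion rats and 0.03, -0.004, -0.41 and -0.10 in the control rats. Its difference of 0.14 (standard error 0.11, exact permutation p = 0.343) was 0.04 without control 3, the lowest animal. It was 0.35 within slide 1, which holds control 3, and -0.08 within slide 2. The raw Cy5 signal of its probe ran from 31683 to 52678 and was saturated on 0 arrays.

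Aqp4, Gja1 and Gjb6 form the water channel of the endfeet and the gap junctions of the astrocyte network. Aqp4, aquaporin 4, had log2 ratios of 0.17, -0.14, 0.27 and -0.02 in the occlusion rats and 0.27, -0.15, -0.63 and -0.24 in the control rats. Control 1 was as high as the highest occluded rat and control 3 the lowest of all. The means were 0.07 ± 0.18 (SD, n = 4) and -0.19 ± 0.37 (SD, n = 4), a difference of 0.26 with a standard error of 0.18 (limma adjusted p = 0.977, exact permutation p = 0.229). Without control 3 it was 0.11 and without control 1 it was 0.41. Within slide 1, which holds control 3, it was 0.45 and within slide 2 it was 0.063.

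Gjb6, a connexin found mainly in astrocytes, had the next largest difference after Sox9. Its log2 ratio was -0.10, 0.39, 0.29 and -0.02 in the occlusion rats and 0.16, -0.13, -0.34 and -0.30 in the control rats. Occlusion rats 2 and 3 were above all controls, and occlusion rats 1 and 4 lay below control 1. The means were 0.14 ± 0.23 (SD, n = 4) and -0.15 ± 0.23 (SD, n = 4), and the difference of 0.29 with a standard error of 0.14 did not pass (limma adjusted p = 0.977, exact permutation p = 0.114). It was 0.47 within slide 1, which holds control 3, the lowest animal, and 0.12 within slide 2.

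Gja1, the most abundant astrocyte connexin, was read by 2 probes that cannot be set side by side. The bright one, A_44_P393551 at chr20:35435826-35435885 of rn3, gave log2 ratios of 0.40, 0.01, 0.37 and 0.17 in the occlusion rats and 0.20, 0.02, 0.16 and -0.10 in the control rats. Occlusion rats 1 and 3 exceeded all controls, and the other two lay within them. The difference was 0.16 with a standard error of 0.11 (limma adjusted p = 0.977, exact permutation p = 0.229). The other probe, A_44_P278604, starts 205 bases upstream and was well above background on 1 of the 8 arrays, that of control 1, so it was not tested and gives no direction.

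**Figure D3:**
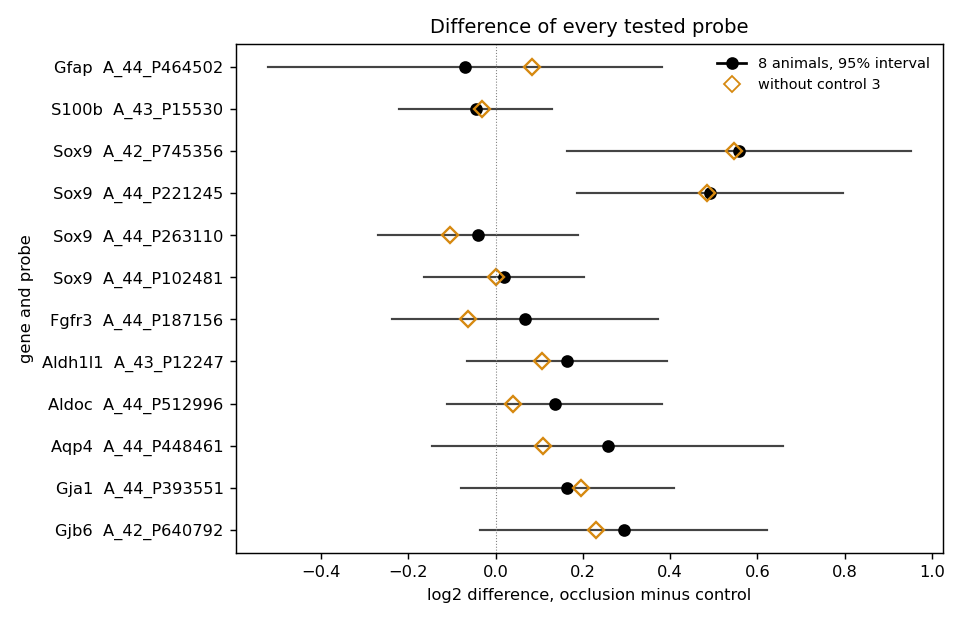
Log2 difference, occlusion minus control, of the 12 tested probes of the 9 genes. Black dots are the fit over 8 animals with its 95% interval, not adjusted for the number of probes, and open diamonds the fit without control 3. The 2 bright Sox9 probes lie near 0.5 in both fits, and Gfap and Fgfr3 change sign.

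RefSeq's table for build GRCr8 holds promoter sequences of 8 of the 9 genes, all but Sox9. All are windows from 250 bases before the annotated start to 50 after it. These were searched on both strands for TTCNNNGAA (a STAT motif), AACAAT (a SOX motif), TGANTCA (an AP-1 motif), the palindromic NFI motif and TATAAA, and no motif contains another. Among the 8 genes' windows the sole match was TGANTCA in Gja1, starting at -58 from the start site. Of all 33469 windows 7.33% hold this motif, 8.87% TTCNNNGAA, 11.7% AACAAT, 14.2% TATAAA and 0.0418% the NFI motif. A match is a description of letters and was not tested for binding. The windows of Gja1 (chr20:36302314-36302613, plus strand) and of Gfap (chr10:88361612-88361911, minus strand) are printed 5′ to 3′, the former for its match, in capitals, and the latter as that of the most used astrocyte marker, with no match.
Gja1: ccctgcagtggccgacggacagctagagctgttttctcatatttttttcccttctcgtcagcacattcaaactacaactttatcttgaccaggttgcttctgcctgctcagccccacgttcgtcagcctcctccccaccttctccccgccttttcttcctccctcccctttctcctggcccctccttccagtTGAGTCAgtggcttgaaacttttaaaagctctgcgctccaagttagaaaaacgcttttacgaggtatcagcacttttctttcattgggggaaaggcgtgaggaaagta
Gfap: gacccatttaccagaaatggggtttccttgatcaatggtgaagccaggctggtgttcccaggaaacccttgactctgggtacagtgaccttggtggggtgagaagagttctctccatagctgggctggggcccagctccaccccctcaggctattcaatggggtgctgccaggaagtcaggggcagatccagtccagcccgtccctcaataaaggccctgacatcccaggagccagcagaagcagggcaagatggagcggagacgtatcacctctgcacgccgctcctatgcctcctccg

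Spot error was small beside the spread between animals. The probes of Gfap, Aqp4, Gja1 and S100b are each printed 10 times on every array, so that their error within an array can be measured. The median SD of the log2 ratio among the spots of 1 array was 0.05 for Aqp4, 0.06 for S100b, 0.07 for Gja1 and 0.10 for Gfap. The SD between animals of 1 group was 0.29, 0.10, 0.16 and 0.33 in the same order. The spread between animals was thus 6.28 times that between single spots for Aqp4, 3.25 times for Gfap and 1.65 times for S100b. Each animal's value is a mean of up to 10 spots, so its own spot error is smaller than the SD of single spots. Each animal had 1 array, so variation of the animals and of the arrays cannot be told apart. The other 5 genes have 1 spot per probe and array, and their spot error was not measured.

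**Figure D4:**
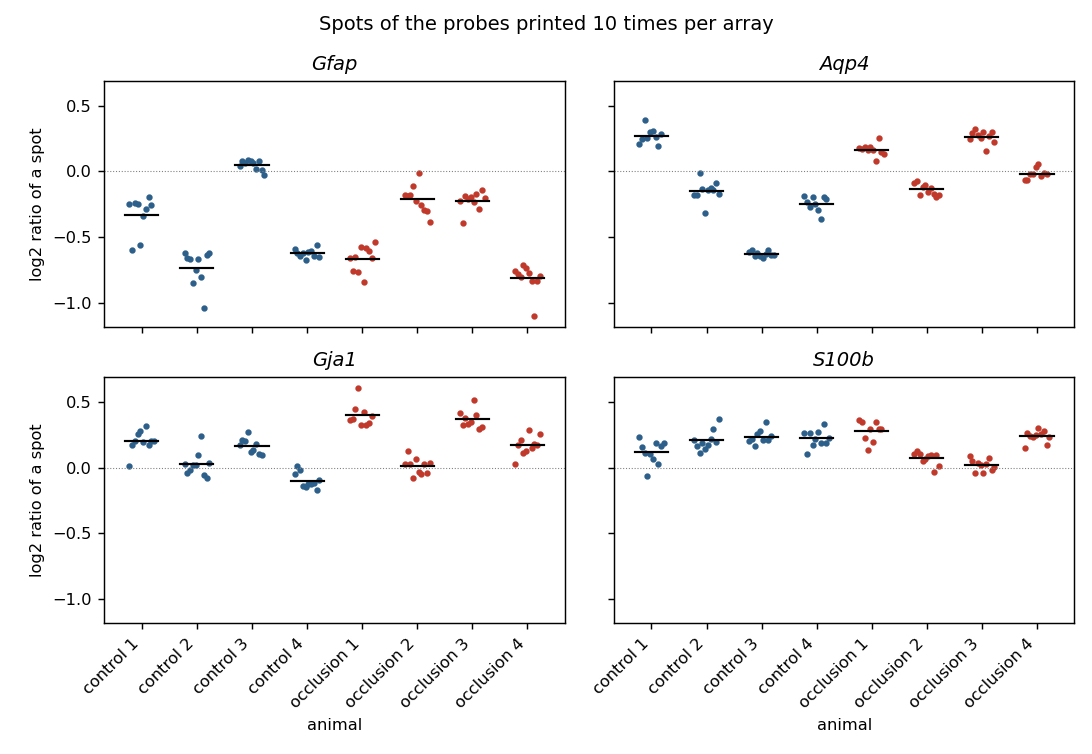
Log2 ratio of every spot of the 4 probes printed 10 times per array, by animal (blue control, red occlusion), with the mean of the spots as a line. Spots of 1 animal cluster tightly beside the distances between animals for Aqp4 and Gfap, while for S100b single spots of different animals overlap more. Each line averages up to 10 spots, so its spot error is smaller than the spread of single spots.

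The 9 genes did not move as 1 group across the animals. Over the 36 pairs of genes, 25 correlated with r above 0, and 7 pairs changed sign without control 3. Aldoc and Fgfr3 had r = 0.90 and Aqp4 and Fgfr3 0.83, which fell to 0.61 and 0.54 without control 3. Gjb6 with Sox9 (0.85, and 0.85 without control 3) and Aldh1l1 with Sox9 (0.80 and 0.82) depended less on that animal. S100b ran against Gjb6, with r = -0.85 in both sets. Pairs with Gfap changed in several ways without control 3. Gfap with Fgfr3 went from -0.57 to -0.03, with Aqp4 from -0.30 to 0.39 and with Aldoc from -0.47 to 0.21. With Gja1 it went from 0.13 to 0.15 and with Sox9 from 0.25 to 0.63. Gfap with Aldh1l1 went from 0.09 to 0.86, Gfap with Gjb6 from 0.21 to 0.84 and Gfap with S100b from -0.49 to -0.92. The values describe 8 arrays that share 1 pool.

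Control 3 split the 9 genes. It was the lowest of the 8 animals for Aldh1l1, Aldoc, Aqp4, Fgfr3 and Gjb6, and the highest for Gfap. Aqp4 was -0.63 there, where the next lowest animal was at -0.24, and Fgfr3 was -0.57, where the next was at -0.20. Gfap was 0.05, with the other 7 animals between -0.81 and -0.21. In the same piece the mean of 8 relay neuron markers was -1.98, that of 6 cortex markers 1.44 and that of 11 meningeal and fibroblast markers 1.13. Elsewhere these lists lay between -0.25 and 0.20, between -0.89 and -0.40 and between -0.56 and 0.05. The part of tissue makeup in the astrocyte values was not tested.

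**Figure D5:**
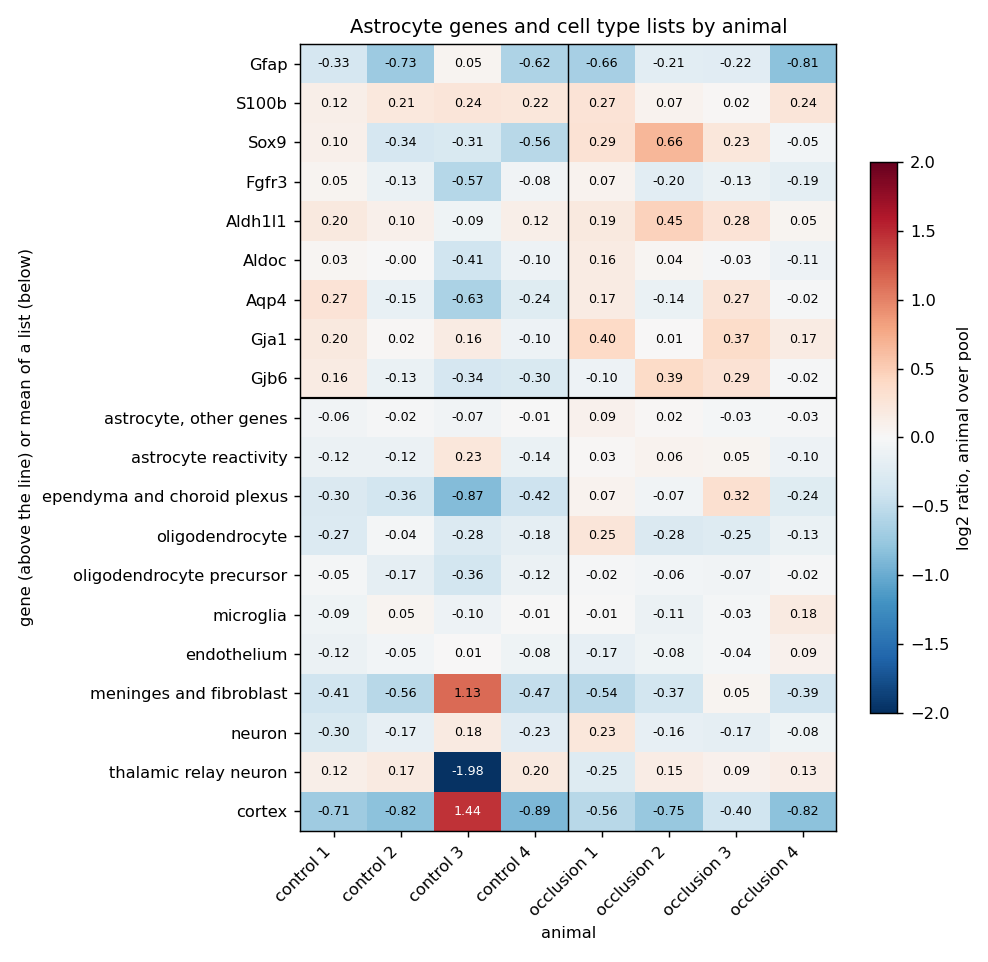
Log2 ratio of animal over pool for the 9 astrocyte genes (above the line) and mean log2 ratio of 11 cell type lists (below), by animal. Red is above and blue below the pool, on a scale from -2 to 2. The column of control 3 holds the extreme values of the relay neuron, cortex and meningeal lists, with low Aqp4, Fgfr3 and Aldoc and the highest Gfap.

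Further astrocyte genes split more evenly by direction. Of 46 further genes on the list, 42 were tested, 26 of them higher and 16 lower. Their median difference was 0.03, or 0.07 without control 3. At an unadjusted p under 0.05 there was 1 of 42, against 3.06% of all tested probes, and 0 passed after adjustment. This was Acsbg1, an acyl-CoA synthetase, with log2 ratios between 0.19 and 0.41 in the occlusion rats and of -0.28, -0.12 and 0.10 in control rats 1, 3 and 4. The spot of control 2 was an outlier and left out. The difference was 0.40 with a standard error of 0.11. The next smallest p-values upwards were those of Hes5, a Notch target (0.25), Dbi, the diazepam-binding inhibitor (0.29), and Atp1b2, a sodium pump subunit (0.28). Dbi was -0.83 and Atp1b2 -0.49 in control 3, below all other animals, and without it their differences were 0.12 and 0.15. Downwards they were those of Ttyh1 (-0.20), S1pr1 (-0.08), the thyroid hormone carrier Slco1c1 (-0.28) and the glutamate transporter Slc1a2 (-0.22). Without control 3 that of S1pr1 was -0.054.

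Genes of core astrocyte functions did not pass, and the differences of the 5 named here depended on control 3. The glutamate transporters Slc1a2 and Slc1a3 differed by -0.22 and -0.15, with standard errors of 0.21 and 0.20. Glul, glutamine synthetase, differed by -0.004 (standard error 0.14) and Kcnj10, the inward rectifier that takes up potassium, by -0.02 (0.11). Mlc1, an endfoot membrane protein, differed by 0.12 (0.11). Slc1a2 was 0.88 and Slc1a3 0.61 in control 3, above the other 7 animals in each case. Without control 3 the differences were -0.010 for Slc1a2, 0.0064 for Slc1a3, 0.12 for Glul, -0.089 for Kcnj10 and 0.069 for Mlc1. Hepacam was among the listed genes with no tested probe.

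None of the tested genes of astrocyte reactivity passed after adjustment. Of 23 listed genes 16 were tested, 10 of them higher and 6 lower. Their median difference was 0.04, and it ran from -0.0063 without control 4 to 0.12 without control 3. At an unadjusted p under 0.05 there was 1 of 16, against 3.06% of all tested probes. This gene was Lcn2, a secreted iron-carrier protein induced early in reactive astrocytes, with log2 ratios of -0.07, 0.12, 0.01 and -0.07 in the occlusion rats and -0.15, -0.31, -0.10 and -0.40 in the control rats. Every occluded rat lay above every control, and 2.5% of all tested probes likewise had groups that did not overlap. The difference was 0.23 with a standard error of 0.09 (limma adjusted p = 0.977, exact permutation p = 0.0286). Vim, the filament vimentin, differed by 0.27 with a standard error of 0.19, and the chaperone Hspb1 by 0.12 with 0.08. Nes, the filament nestin, gave -0.10, Timp1 -0.16, Cd44 -0.08 and Serpina3n -0.02. Timp1 was 0.90 in control 3, and its difference without that animal was 0.091. Without it Vim gave 0.46, Nes -0.18, Cd44 -0.024 and Serpina3n -0.066.

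Genes most like Sox9 and Gfap over the 8 animals were taken from 10127 other genes with a symbol, by Pearson's r. Nearest to Sox9 were Prpf19 (0.96), Nfatc2ip (0.95), Ralgdsl2 (0.94) and Fxyd3 (0.94). Prpf19, a splicing factor, was 0.05, 0.37, 0.001 and -0.50 in the occlusion rats and -0.27, -0.49, -0.65 and -0.66 in the control rats. Nearest to Gfap were Serping1 (0.99), Id3 (0.95), Clp1 (0.95) and Dnajb13 (0.94). Serping1, the C1 inhibitor, was -0.45, 0.21, 0.21 and -0.49 in the occlusion rats and -0.05, -0.49, 0.61 and -0.39 in the control rats. It thus followed Gfap animal by animal, with r = 0.98 without control 3. Serping1 is itself on the reactivity list, and Id3 on that of further astrocyte genes. Gfap had r = 0.78 with the means of both the reactivity list and the meningeal and fibroblast list, and 0.57 and 0.64 without control 3. With the microglia list r was -0.82, and -0.83 without control 3. The nearest genes were picked as the highest of all r values, so they are a description and no test was made of them.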

How the data were processed

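Medial thalamus RNA of 8 rats was measured on Agilent arrays of 2 colours. Per the file headers, scanned images were read by Agilent's Feature Extraction, version 9.5.1.1. The deposited scanner files hold, for each spot, linear intensity and the log10 of Cy5 over Cy3. The authors' deposited table repeats these log10 values: 100% of spots matched within 1%.

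Mean signals were corrected for the median local background (normexp, offset 50), then loess was run within each array, control and outlier spots having weight 0. Outlier spots were left out and spots of a probe averaged as log2 ratios. Tested were the 31689 probes whose Cy5 was well above background on 4 or more arrays, with 2 or more values a group. The groups were compared by limma 3.58.1 (R 4.3.3, lmFit and eBayes, two-sided, Benjamini-Hochberg), the fit having been tested on simulated data. Single probes were also tested by exact two-sided permutation over 70 assignments. Of 41012 probes, 10735 were named by accession and 5506 by symbol through RefSeq (GRCr8), and others kept the array's name. The promoter windows are from GRCr8 too, whereas probe positions are those of rn3.

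Named genes are the 9 members, fixed genes of each list, the smallest p-values of 2 lists (4 in each direction, 3 in either) and the 4 nearest genes to Sox9 and Gfap. Members and lists were chosen with earlier results of these data known. Prpf19 and Serping1 are given in full, and animals are singled out, after their values were seen. Figures were drawn with matplotlib 3.10.9.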

Additional observations from a re-analysis of the deposited data

Results flagged for a closer look

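The most extreme of 4 animals in a group was compared with its nearest neighbour in 28 checks of astrocyte probes and list means. In 1 check the gap took up most of the group's range (0.951 of it, past the critical value of Dixon's test), and chance gives about 1 in 20. The animal was control 3, whose mean over the 16 reactivity genes was 0.23, against -0.12, -0.12 and -0.14 in control rats 1, 2 and 4. The occlusion rats lay between -0.10 and 0.06.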

How the results depend on the processing

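Over the 24 alternatives (background correction, normalisation, filter, weights, blocks, single slides, 1 animal left out), the brightest probes of Sox9, Gjb6, Aqp4, Gja1 and Aldh1l1 stayed above 0 in every one. Sox9 lay between 0.21 and 0.91, Gjb6 between 0.12 and 0.47, Aqp4 between 0.063 and 0.45, Gja1 between 0.11 and 0.51 and Aldh1l1 between 0.017 and 0.40. Between 6 and 8 of the 9 genes lay above 0. The lowest adjusted p of a member was 0.863. The dim Sox9 probe A_44_P102481 turned to -0.024 without background correction, -0.059 with plain subtraction, -0.082 on the software's ratios and on the deposited table and -0.12 on slide 2 alone. Leaving out 1 animal gave -0.036 to 0.074, and -0.11 to 0.019 for A_44_P263110. S100b was 0.0061 with median centring and 0.019 with loess then scale. Fgfr3 was -0.013 on the software's ratios and on the deposited table, -0.080 with scale, -0.015 with array weights, -0.12 on slide 2 alone and -0.063 to 0.14 with 1 animal left out. Gfap was 0.14 with array weights, 0.012 on slide 2 alone and -0.18 to 0.083 with 1 animal left out. Aldoc was -0.084 on slide 2 alone. The causes were not tested. The median of the other astrocyte genes was 0.078 on slide 1 alone and -0.0047 to 0.074 with 1 animal left out. That of the reactivity genes was -0.0063 to 0.12 with 1 animal left out. Probes past adjusted p 0.05 numbered 0 to 1 with 1 animal left out. The 1, without control 3, was LOC680611, which is on none of the astrocyte lists used here. At an unadjusted p under 0.05 there were 325 probes with median centring, 969 as reported and 1688 without control 1. With the replicate number as a block the count past adjustment was 0, and the same numbers did not pair the animals (r = -0.14, 0.10, 0.03 and 0.10). Signal near background limits the upstream Sox9 probes and the second Gja1 probe.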
